A study of Mus musculus with 8 samples.

Results

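The expression of 10 germline genes was followed in mouse pluripotent stem cells. The genes were Dazl, Ddx4, Sycp1, Sycp3, Mael, Stra8, Hormad1, Tex101, Tdrd1 and Tex19.1, and they were taken by name from the 22878 genes in the expression tables. They are known for a shared mode of control. In somatic cells their promoters carry DNA methylation, which is laid down around implantation mainly by Dnmt3b and keeps the genes silent until germ cells erase it. In pluripotent cells a variant Polycomb complex that contains E2f6, Mga, Max, L3mbtl2 and Pcgf6 restrains many of them as well, and E2f6 and the Mga and Max pair are known to recognise short DNA motifs in their promoters. DNA methylation was not measured in these libraries, so silencing by methylation is background here and not a result.

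RNA-Seq was conducted on 5 cell lines. R1 is a mouse ESC line, sequenced in 2 libraries. The other 4 lines are secondary iPSC lines from somatic cells of adult all-iPSC mice, in which doxycycline (DOX) induces Oct4, Sox2, c-Myc and Klf4, and colonies were picked after DOX was withdrawn. Line 16-6 came from mesodermal hematopoietic progenitor cells (2 libraries), line 32 from mesodermal adipocyte progenitor cells (2 libraries), line S8 from ectodermal epidermal cells (1 library) and line T2 from endodermal stomach lining cells (1 library). Each line stands for its tissue by itself, so line and tissue of origin cannot be told apart. All lines were grown with LIF on mitomycin C-treated mouse embryonic fibroblasts (MEFs), which can add RNA of their own. The labels give embryo as the tissue, whereas the titles and the methods of the study name cultured lines.

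The 10 genes are spread over 9 chromosomes of the mm9 genome and are all annotated as protein coding. Counted from 1, their loci are chr17:50418719-50432924 for Dazl, chr13:113388541-113442518 for Ddx4, chr3:102622422-102740023 for Sycp1, chr10:87922332-87935981 for Sycp3, chr1:168131516-168168875 for Mael, chr6:34870960-34889342 for Stra8, chr3:95363599-95391593 for Hormad1, chr7:25453031-25457069 for Tex101, chr19:56900699-56944502 for Tdrd1 and chr11:121007457-121009627 for Tex19.1. Sycp1 and Hormad1 are both on chromosome 3.

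Promoter windows of 300 bases, from 250 bases before to 50 bases after the annotated start, were read from RefSeq for the GRCm38.p6 build, and all 10 genes had a window. The windows were searched on both strands for GCGGGA, the core recognised by E2f6, and for CACGTG, the E-box recognised by Mga with Max. GCGGGA was found in 6 of the 10 windows and in 20.02% of 27025 windows with 1 window per gene. CACGTG was found in 6 of the 10 windows and in 7.24% of all windows. Both motifs stood in the windows of Ddx4, Sycp1, Sycp3, Mael and Hormad1, that is 5 of 10, against 2.05% of all windows, and in these windows the matches of the 2 motifs did not overlap. The windows were also rich in CpG, with a median of 20.5 CpG sites per window against 7 over all genes, and an observed-to-expected CpG ratio of at least 0.6 in 8 of 10 against 36.5% of all windows. The ratio was lowest for Stra8 (0.430, 10 CpG sites) and highest for Ddx4 (0.978, 38 CpG sites). Both motifs contain a CpG themselves, and the shares are over all windows, not over windows of like CpG content. The part of CpG content in the motif shares was not tested. For Hormad1 (2 annotated windows) and Tdrd1 (3 annotated windows) only the window listed first was read. A match is a description of the letters and does not show that a factor was bound.

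The 5 windows that hold both motifs are printed because they show, for this subset of the group, sequence features that the expression values did not choose. Each is given 5′ to 3′ on the strand of its gene, with GCGGGA, its reverse complement TCCCGC and CACGTG in capitals. The windows are chr13:112652261-112652560 on the minus strand for Ddx4, chr3:102936051-102936350 on the minus strand for Sycp1, chr10:88459337-88459636 on the plus strand for Sycp3, chr1:166238695-166238994 on the minus strand for Mael and chr3:95559427-95559726 on the plus strand for Hormad1, which has 2 annotated windows of which the one listed first is shown.
Ddx4: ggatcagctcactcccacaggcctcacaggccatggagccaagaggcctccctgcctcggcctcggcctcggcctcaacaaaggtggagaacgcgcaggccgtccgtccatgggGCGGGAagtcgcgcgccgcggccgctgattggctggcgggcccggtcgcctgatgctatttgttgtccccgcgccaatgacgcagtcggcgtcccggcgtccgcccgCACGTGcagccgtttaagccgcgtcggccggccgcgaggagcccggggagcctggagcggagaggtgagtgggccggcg
Sycp1: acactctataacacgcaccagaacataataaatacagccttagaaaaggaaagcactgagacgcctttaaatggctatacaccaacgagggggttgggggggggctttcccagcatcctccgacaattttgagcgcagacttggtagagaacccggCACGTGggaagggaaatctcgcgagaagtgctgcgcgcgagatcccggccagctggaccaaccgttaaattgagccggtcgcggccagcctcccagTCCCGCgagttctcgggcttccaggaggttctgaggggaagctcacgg
Sycp3: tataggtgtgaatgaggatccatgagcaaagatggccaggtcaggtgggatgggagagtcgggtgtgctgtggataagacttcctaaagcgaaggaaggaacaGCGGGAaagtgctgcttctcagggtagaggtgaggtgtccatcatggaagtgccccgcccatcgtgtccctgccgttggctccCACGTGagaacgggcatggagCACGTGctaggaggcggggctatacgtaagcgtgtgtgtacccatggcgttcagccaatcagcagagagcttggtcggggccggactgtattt
Mael: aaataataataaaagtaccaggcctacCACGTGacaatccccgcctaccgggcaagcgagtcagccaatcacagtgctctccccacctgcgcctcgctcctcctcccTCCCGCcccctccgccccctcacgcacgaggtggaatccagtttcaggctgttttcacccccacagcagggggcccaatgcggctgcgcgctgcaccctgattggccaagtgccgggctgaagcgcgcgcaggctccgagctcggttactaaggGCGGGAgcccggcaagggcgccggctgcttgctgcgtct
Hormad1: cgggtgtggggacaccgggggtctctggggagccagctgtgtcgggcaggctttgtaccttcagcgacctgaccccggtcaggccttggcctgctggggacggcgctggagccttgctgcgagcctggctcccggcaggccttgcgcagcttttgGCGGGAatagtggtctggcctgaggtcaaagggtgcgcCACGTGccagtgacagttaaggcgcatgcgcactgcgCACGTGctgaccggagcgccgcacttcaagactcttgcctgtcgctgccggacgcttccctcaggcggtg

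**Figure D1:**
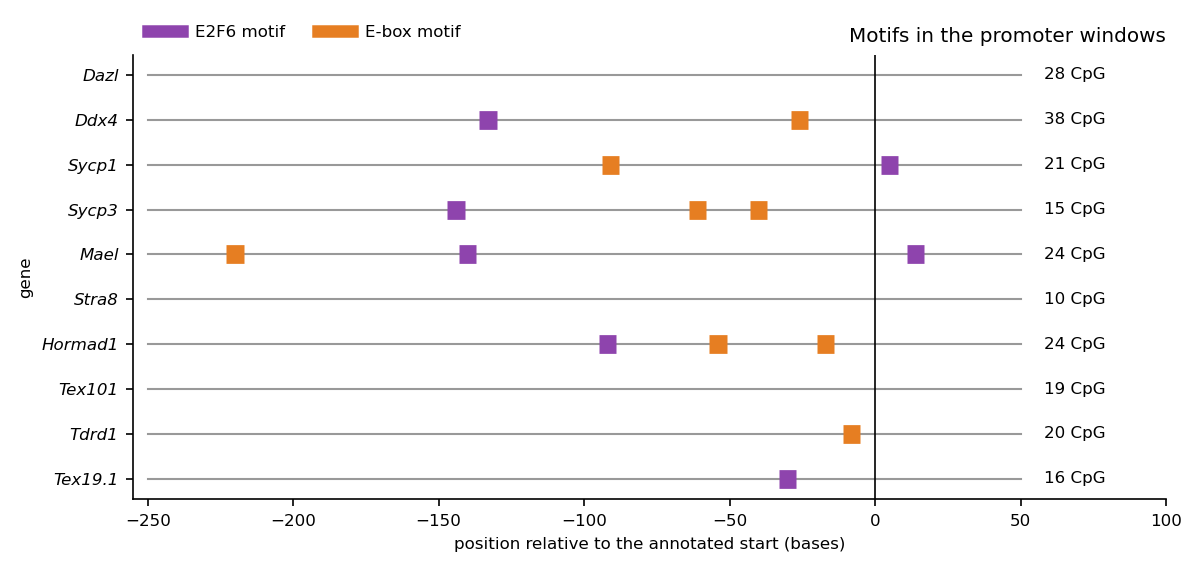
Positions of the E2F6 motif (purple) and of the E-box (orange) in the 300-base window of each of the 10 genes, in bases relative to the annotated start, with the number of CpG sites at the right. Sycp3 and Hormad1 each hold 2 E-boxes within 100 bases before the start, Mael holds 2 E2F6 motifs, and Dazl, Stra8 and Tex101 hold neither motif.

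The deposited values were FPKM (fragments mapped to a gene, scaled by transcript length and by library size), each with 95% confidence limits, and they were divided by 1 common constant here. In units of 1000000, the limits imply 15.5 to 16.7 fragments per library. The read table of the study lists more reads for S8 and T2 than for the other lines, with a smaller share of them uniquely mapped. Sequencing therefore differed between S8 and T2 and the other lines, and its part in their differences cannot be told apart from that of the lines. All 8 markers of pluripotent cells were detected in every library, from 53.4 FPKM upward, but they did not move together. Pou5f1 was between 485.3 and 1020.0 FPKM, whereas Zfp42 had a mean of 542.3 FPKM in R1, 142.4 in 16-6, 267.8 in 32, 118.6 in S8 and 92.9 in T2, and Esrrb had a mean of 179.4 FPKM in R1, 86.7 in 16-6, 175.0 in 32, 60.3 in S8 and 53.4 in T2. The summed FPKM of 8 pluripotency markers was 4044 and 4407 in R1, 2605 and 2669 in 16-6, 5101 and 4299 in 32, 5305 in S8 and 3516 in T2. The geometric mean of the 8 markers put the lines in another order, with 353.6 FPKM in S8 and 276.6 in T2, both below the 416.7 and 432.5 of R1, and 254.3 and 259.7 in 16-6 and 450.1 and 434.9 in 32. The summed FPKM of 10 fibroblast markers, among them Col1a1 and Thy1, was 854.5 and 888.3 in R1, 1595 and 1577 in 16-6, 64.0 and 63.1 in 32, 379.5 in S8 and 549.1 in T2, and none of the 10 was at 0 in any library. The sum was highest in 16-6 and lowest in 32, but single markers did not all follow it. In 16-6 against R1, 5 of the 10 fibroblast markers were called higher, among them Col1a1 (1.71) and Postn (2.28), and 2 were called lower on the log2 scale, Dcn (-2.63) and Lum (-2.72), and in 32 all 10 were called lower. The part of fibroblast RNA in the differences below was not tested. The 9 markers of testis and oocyte cells summed to between 5.90 and 11.6 FPKM, most of it from Sox9 and Zp3, with Prm2 and Tnp1 at 0 in all 8 libraries.

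All 10 genes had a value above 0 FPKM in every library. The lower confidence limit was also above 0 in every library for all genes but Tex101. For Tex101 that limit was 0 in both 16-6 libraries, S8 and T2, on 2, 2, 4 and 4 implied fragments. Whether Tex101 was silent there was not tested. The summed level of the 10 genes was 94.3 and 107.2 FPKM in R1, 52.7 and 48.3 in 16-6 and 77.1 and 80.9 in 32. It was 133.9 FPKM in S8 and 79.6 FPKM in T2. The sum was therefore lowest in both libraries of 16-6 and highest in S8, and most of it came from Tex19.1, Mael and Sycp3. The rest of the genes stayed at or below 21.0 FPKM. In bulk RNA, fewer cells that express a gene and less RNA per cell cannot be told apart.

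**Figure D2:**
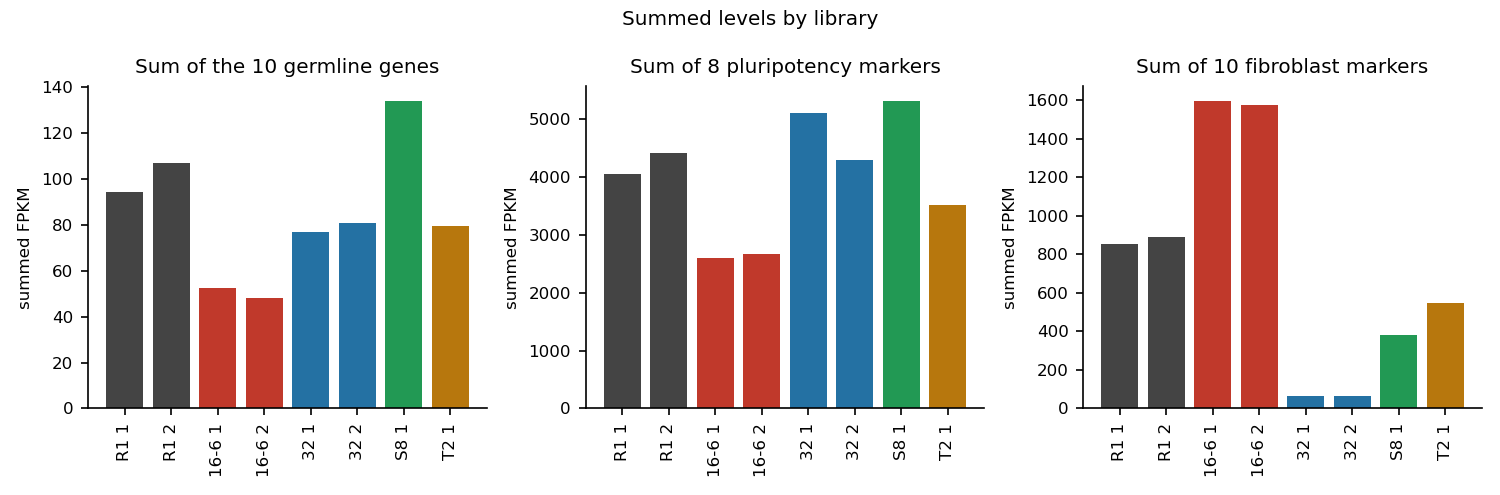
Summed FPKM of the 10 germline genes, of 8 pluripotency markers and of 10 fibroblast markers in each of the 8 libraries, as bars from 0. The germline sum and the pluripotency sum were both lowest in 16-6, at 48.3 to 52.7 and 2605 to 2669 FPKM, where the fibroblast sum was highest, at 1577 to 1595 FPKM.

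Dazl and Ddx4 encode RNA-binding proteins of germ cells. Dazl, a regulator of translation, was at 3.71 and 3.41 FPKM in R1, 2.13 and 2.20 in 16-6, 4.97 and 5.50 in 32, 4.76 in S8 and 2.36 in T2. It was lowest in 16-6 and T2 and highest in 32 and S8, and the values of 16-6 and 32 lay on opposite sides of R1. Ddx4, the DEAD-box helicase also called Vasa that marks germ granules, was at 8.66 and 8.74 FPKM in R1, 8.0 and 8.37 in 16-6, 11.01 and 10.1 in 32, 10.2 in S8 and 10.8 in T2. Of the 9 genes that were tested, Ddx4 had the narrowest range between lines, 0.36 on the log2(FPKM + 1) scale. Stra8, which retinoic acid induces as germ cells enter meiosis, was at 1.27 and 1.57 FPKM in R1, 1.70 and 2.20 in 16-6, 2.29 and 2.31 in 32, 2.42 in S8 and 0.465 in T2. The T2 value rests on 9 implied fragments. Its upper limit (0.774 FPKM) lay just above the lower limit of R1 replicate 1 (0.751 FPKM), so the limits overlapped.

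Sycp1, Sycp3 and Hormad1 encode parts of the meiotic chromosome axis and the synaptonemal complex that joins homologous chromosomes. Sycp3, a component of the lateral elements, was at 21.2 and 26.5 FPKM in R1, 6.74 and 4.83 in 16-6, 9.75 and 11.6 in 32, 9.75 in S8 and 6.78 in T2. Both R1 libraries were above all 6 iPSC libraries, with 21.2 FPKM as the lower R1 value and 11.6 FPKM as the highest iPSC value. Sycp1, which forms the transverse filaments, was at 3.49 and 3.86 FPKM in R1, 1.74 and 1.66 in 16-6, 2.85 and 3.12 in 32, 2.97 in S8 and 2.06 in T2. Here too both R1 libraries were the highest, but the confidence limits of 32 and S8 overlapped those of R1. Hormad1, which binds unsynapsed axes, was at 6.69 and 7.59 FPKM in R1, 2.91 and 3.51 in 16-6, 5.29 and 5.65 in 32, 21.0 in S8 and 10.5 in T2. It followed another order than Sycp3, with S8 and T2 above R1 and 16-6 and 32 below.

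Mael, Tdrd1 and Tex19.1 act against transposons in the germline. Mael, a factor of the piRNA pathway in the nuage, was at 18.5 and 19.9 FPKM in R1, 9.78 and 8.42 in 16-6, 11.2 and 13.7 in 32, 31.5 in S8 and 17.1 in T2. Tex19.1, which is known in pluripotent cells as well as in germ cells, was at 29.5 and 34.3 FPKM in R1, 18.2 and 15.3 in 16-6, 27.7 and 27.4 in 32, 49.3 in S8 and 26.9 in T2. Both genes were highest in S8 and lowest in 16-6. Tdrd1, a Tudor-domain scaffold that binds piRNA proteins, was at 0.755 and 0.941 FPKM in R1, 1.32 and 1.61 in 16-6, 1.16 and 0.883 in 32, 1.77 in S8 and 2.39 in T2. It rested on 30 to 101 implied fragments per library and was highest in T2 by FPKM. By share of implied fragments it was highest in S8, with ratios to R1 of 2.70 in S8 and 2.31 in T2. The 2 R1 libraries also changed order, with 42.1 implied fragments at 0.755 FPKM and 29.9 at 0.941 FPKM. For Tdrd1 the implied fragments were not whole numbers, and the limits they come from also cover assignment error. They and their shares are therefore not to be read as counts for this gene. Tex101, a glycoprotein on the surface of male germ cells, was at 0.565 and 0.462 FPKM in R1, 0.160 and 0.161 in 16-6, 0.887 and 0.705 in 32, 0.306 in S8 and 0.280 in T2. These values rest on 2 to 10 implied fragments, Tex101 did not reach 1 FPKM in any library, and it was not tested.

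**Figure D3:**
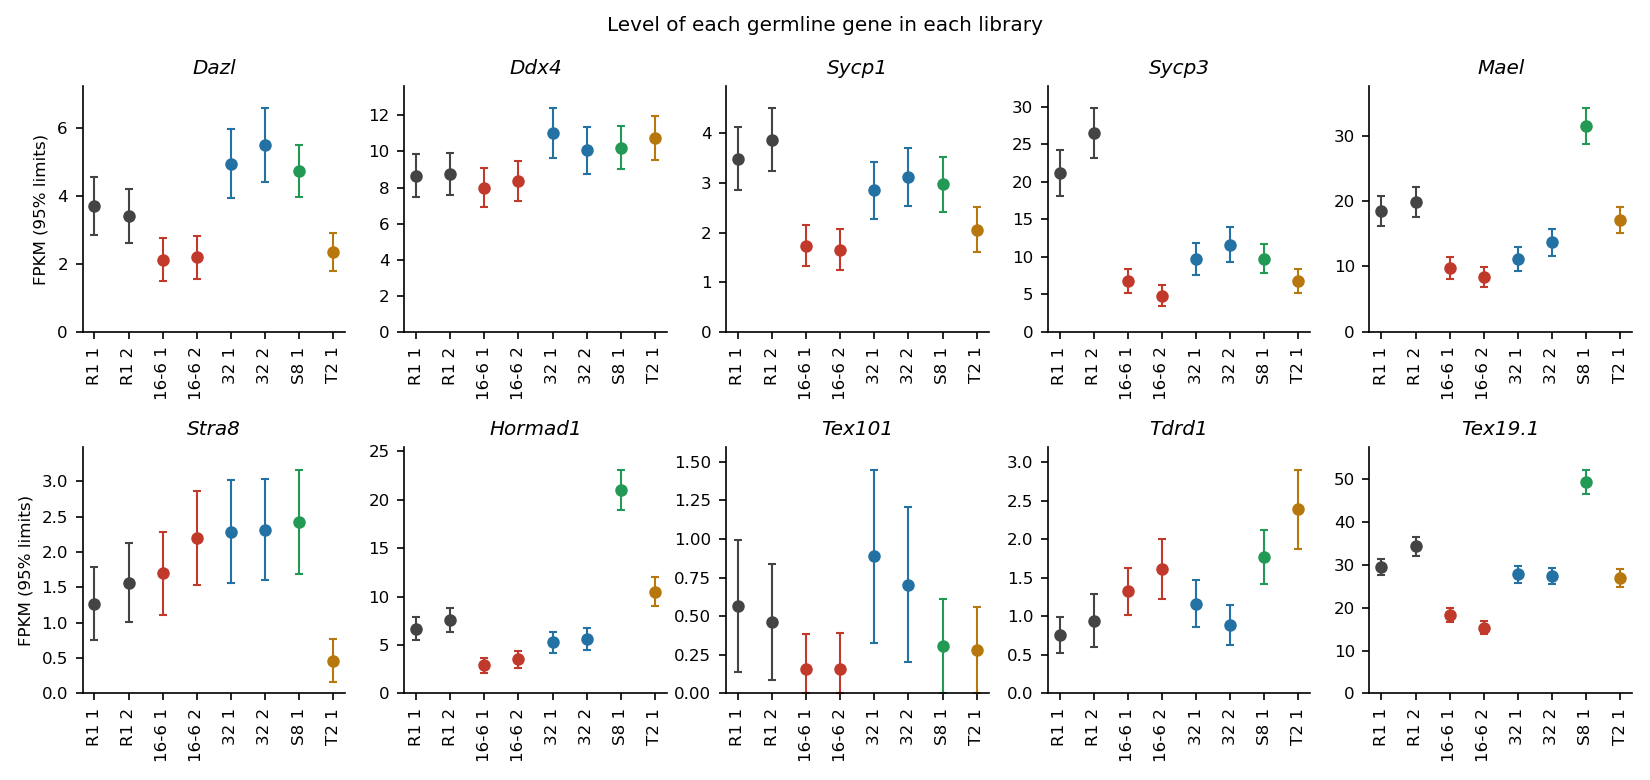
FPKM of each of the 10 genes in each library, with the 95% confidence limits given in the files as bars and a linear axis from 0 in each panel. Sycp3 is higher in both R1 libraries (21.2 and 26.5 FPKM) than in all iPSC libraries (4.83 to 11.6 FPKM), whereas Mael, Hormad1 and Tex19.1 peak in S8.

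Lines were compared by limma across all 13693 genes with at least 1 FPKM in at least 1 library, which 9 of the 10 genes passed. Tdrd1 was under 1 FPKM in both R1 libraries (0.755 and 0.941) and passed through iPSC libraries only. Its differences from R1 are therefore descriptions only, here and below. Differences are on the log2(FPKM + 1) scale, on which the changes of weakly expressed genes come out too small. A gene is called changed here when the Benjamini-Hochberg adjusted p over all genes was below 0.05 and the difference was at least 2-fold. Here and below, 2-fold is meant on that scale unless FPKM alone is named. S8 and T2 have 1 library each and are assumed to vary like the 3 replicated lines, so their calls have no replicate check. All comparisons with R1 share its 2 libraries.

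The comparison of 16-6 with R1 asked whether iPSCs from blood progenitors match ESCs. Sycp3 and Mael fell in 16-6, so 2 of the 9 tested genes were called, against 7.11% of all genes. Sycp3 was lower by a log2 difference of -1.88 ± 0.18 (SE, adjusted p = 0.00108), with a mean of 5.79 ± 1.35 FPKM (SD, n = 2) against 23.9 ± 3.74 in R1. Mael was lower by a log2 difference of -1.0 ± 0.12 (SE, adjusted p = 0.0019), exactly at the 2-fold limit. Hormad1 (-0.95, adjusted p = 0.00129), Tex19.1 (-0.89, adjusted p = 0.00204), Sycp1 (-0.79, adjusted p = 0.00108) and Dazl (-0.53, adjusted p = 0.00357) had negative log2 differences under 2-fold on this scale. By FPKM alone Hormad1 and Sycp1 were past 2-fold, with ratios to R1 of 0.449 and 0.462, and Tex19.1 (0.526) and Dazl (0.607) were not. Tdrd1 was the only tested gene with a positive log2 difference that passed the adjusted p, at 0.42 (adjusted p = 0.0292), but it entered the test through iPSC libraries only. By adjusted p alone 7 of 9 passed, against 55.6% of all genes. The confidence limits of both 16-6 libraries lay wholly below those of R1 for Sycp1, Sycp3, Mael, Hormad1 and Tex19.1, 5 of the 10 genes, while limits were apart for 39.5% of all tested genes. The median log2 difference of the 9 genes was -0.79, with a median of -0.03 over all genes.

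The pluripotency markers were themselves lower in 16-6 than in R1, with a median log2 difference of -0.65 over the 8 markers. When each library was scaled to these markers, the median log2 difference moved to -0.20 for the 9 germline genes and to 0.61 for all genes. This scaling shifts every gene of a library alike, and it put the median of all genes at -0.07 in 32, 0.18 in S8 and 0.50 in T2, so values on that scale are to be read against these medians. Sycp3 still fell on that scale, while Mael had a log2 difference of -0.33 (adjusted p = 0.0588). Mael was also under 2-fold without R1 replicate 2 (-0.95) or without 16-6 replicate 2 (-0.90).

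In line 32, of adipocyte progenitor origin, Sycp3 fell and the remaining tested genes stayed within 2-fold of R1. The log2 difference of Sycp3 was -1.09 ± 0.18 (SE, adjusted p = 0.00511), with a mean of 10.7 ± 1.31 FPKM (SD, n = 2). This makes 1 of 9, against 9.77% of all genes, and the difference was under 2-fold without R1 replicate 2 (-0.93), without 32 replicate 1 (-0.97) and after quantile normalization (-0.99). Mael had the next lowest log2 difference, -0.59 (adjusted p = 0.00896), and Stra8 (0.45, adjusted p = 0.0206) and Dazl (0.45, adjusted p = 0.00512) the highest. By adjusted p alone 7 of 9 passed, against 61.5% of all genes. Confidence limits lay below those of R1 for Sycp3 and Mael and overlapped for the other 8 genes, with 43.3% apart over all genes. The median log2 difference of the 9 genes was -0.20, against -0.02 over all genes, and it became 0.15 after quantile normalization. All 10 fibroblast markers were lower in 32 than in R1, with a median log2 difference of -3.23, and their part in the values of 32 was not tested.

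S8, of epidermal origin, departed from R1 in both directions. Hormad1 rose by a log2 difference of 1.43 ± 0.12 (SE, adjusted p = 0.000457), from a mean of 7.14 FPKM in R1 to 21.0 FPKM, and Sycp3 fell by 1.20 on the log2 scale (SE 0.22, adjusted p = 0.00628), or by 0.95 when libraries were scaled to the pluripotency markers. These are 2 of 9 genes, against 16.7% of all genes. Mael (0.69, adjusted p = 0.00941), Tex19.1 (0.62, adjusted p = 0.00981), Tdrd1 (0.59, adjusted p = 0.015), Stra8 (0.50, adjusted p = 0.0255) and Dazl (0.34, adjusted p = 0.0245) had positive log2 differences under 2-fold on this scale. By FPKM alone the ratio of Tdrd1 to R1 was 2.09. By adjusted p alone 7 of 9 passed, against 66.7% of all genes. The confidence limits of S8 lay above those of both R1 libraries for Mael, Hormad1, Tdrd1 and Tex19.1 and below them for Sycp3, whereas limits were apart for 60.2% of all genes. The median log2 difference of the 9 genes was 0.50, against -0.03 over all genes, and it stayed between 0.42 and 0.65 under all alternatives that keep S8 except the filter on every library, where 7 genes gave 0.34.

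The FPKM of S8 and T2 related to fragment numbers somewhat differently from gene to gene. The SD over genes of FPKM per implied fragment, relative to R1 replicate 1, was 0.398 in S8 and 0.365 in T2 on the log2 scale, compared with 0.236 to 0.262 in the other libraries. For Dazl the S8 to R1 ratio was 1.33 by FPKM and 1.99 by share of implied fragments, and for Tex19.1 it was 1.55 and 1.26. For Hormad1 the ratios were alike, 2.94 and 2.91, as they were for Sycp3, 0.409 and 0.423.

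T2, of stomach lining origin, had Sycp3 lower by a log2 difference of -1.67 ± 0.22 (SE, adjusted p = 0.00284) and no other tested gene past 2-fold on the log2(FPKM + 1) scale. By FPKM alone Tdrd1 and Stra8 were past 2-fold too, with ratios to R1 of 2.82 and 0.328, and neither was called. The call of Sycp3 is 1 of 9, against 10.5% of all genes. Tdrd1 (0.88, adjusted p = 0.00496), Hormad1 (0.50, adjusted p = 0.0186) and Ddx4 (0.28, adjusted p = 0.0268) had positive log2 differences. Stra8 (-0.72, adjusted p = 0.00948), Sycp1 (-0.61, adjusted p = 0.00446) and Dazl (-0.44, adjusted p = 0.0121) had negative ones, of which that of Dazl became 0.02 when libraries were scaled to the pluripotency markers. By adjusted p alone 7 of 9 passed, against 57.9% of all genes. Confidence limits lay above those of R1 for Hormad1 and Tdrd1 and below them for Sycp1 and Sycp3, with 53.0% apart over all genes. The median log2 difference was -0.23, against -0.03 over all genes, and it was 0.37 on the scale of the pluripotency markers, which moved the median of all genes to 0.50.

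**Figure D4:**
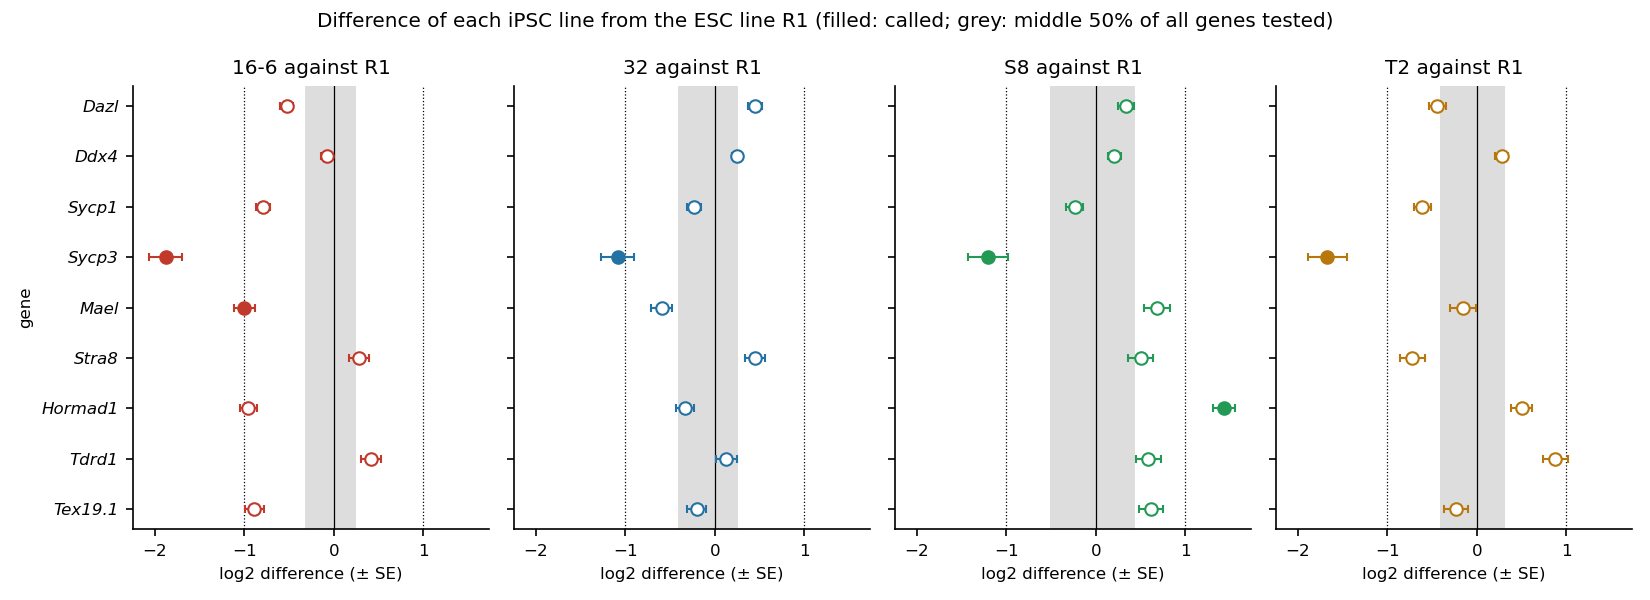
Log2 difference of each iPSC line from R1 for the 9 tested genes, with SE bars, filled points for called changes, dotted lines at 2-fold and a grey band for the range between the quartiles of all genes. Sycp3 is filled in all 4 lines, at -1.88, -1.09, -1.20 and -1.67, Mael is filled in 16-6 and Hormad1 in S8.

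Averaged over the 4 iPSC lines, Sycp3 was the only tested gene called against R1, with a log2 difference of -1.46 ± 0.15 (SE, adjusted p = 0.000936) and lower values in 6 of 6 iPSC libraries. This is 1 of 9, against 6.41% of all genes. It was called in all 16 alternatives, with log2 differences between -1.61 and -1.10. By adjusted p alone 4 of 9 passed, against 65.0% of all genes. The others were Sycp1 (-0.47, adjusted p = 0.00229), Tdrd1 (0.50, adjusted p = 0.00697) and Ddx4 (0.16, adjusted p = 0.0364). Hormad1 had a mean log2 difference of 0.16 with S8 and T2 and of -0.64 without them, so its mean depends on which lines enter.

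The lines also differed among themselves. A moderated F test over the 5 lines, with at least 2-fold between the highest and the lowest line, called Hormad1, Sycp3, Mael, Tex19.1 and Stra8, 5 of 9 genes, against 34.5% of all genes. The range between line means was 2.39 for Hormad1 (adjusted p = 0.000305), 1.88 for Sycp3 (adjusted p = 0.0021), 1.69 for Mael (adjusted p = 0.00119), 1.51 for Tex19.1 (adjusted p = 0.00144) and 1.22 for Stra8 (adjusted p = 0.0037) on the log2 scale. S8 held the highest mean for Hormad1, Mael, Tex19.1 and Stra8, and the lowest mean for Stra8 was that of T2, on 9 implied fragments. Without S8 and T2, 2 of the 9 genes were called, against 16.4% of all genes.

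Lines 16-6 and 32 are both mesodermal, and none of the 9 genes was called between them, against 10.3% of all genes. By adjusted p alone 7 of 9 passed, against 60.4%, and all 7 were lower in 16-6. Dazl came nearest to 2-fold, with a log2 difference of -0.98 ± 0.08 (SE, adjusted p = 0.000378), and was called lower in 16-6 without 32 replicate 1. Sycp3 (-0.79, adjusted p = 0.0149), Tex19.1 (-0.69, adjusted p = 0.00374), Hormad1 (-0.62, adjusted p = 0.00406), Sycp1 (-0.56, adjusted p = 0.0025), Mael (-0.41, adjusted p = 0.0311) and Ddx4 (-0.33, adjusted p = 0.00715) followed. By FPKM alone Dazl was past 2-fold, with means of 2.16 in 16-6 and 5.23 in 32. On the scale of the pluripotency markers the log2 differences of Ddx4, Mael, Tex19.1 and Hormad1 were 0.38, 0.31, 0.06 and 0.0082, while the same scaling moved the median of all genes in this comparison from -0.06 to 0.60, above all 4 values.

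Other genes of the germline programme were described by lists, with the same test across all genes. The shares of all genes called were 7.11% in 16-6, 9.77% in 32, 16.7% in S8 and 10.5% in T2, for this list and those below. Of 19 genes of the synaptonemal complex, cohesin and meiotic recombination, 13 were tested, and 5 fell in 16-6, 2 in 32, 1 in S8 and 1 in T2, and none rose. The 1 in T2 was Syce3, which was listed at 0 there. Their median log2 difference was -0.90 in 16-6, -0.38 in 32, -0.07 in S8 and -0.23 in T2. Scaled to the pluripotency markers, 1 gene fell in 16-6, with a median of -0.41, and the medians of S8 and T2 were 0.13 and 0.32, while quantile normalization gave a median of 0.03 in 32. Syce3, a central element protein listed under its older name 1700007E06Rik, was at 9.51 and 7.92 FPKM in R1, 1.83 and 1.57 in 16-6, 2.92 and 2.40 in 32 and 2.61 in S8, and was listed at 0 in T2. It was called lower in 16-6 (-1.84), 32 (-1.41) and S8 (-1.42), and its call in T2 rests on that 0. Smc1b, a meiotic cohesin subunit, fell in 16-6 (-1.38) and 32 (-1.06), while its log2 difference was 0.17 in S8. Syce1, another central element gene, fell in 16-6 (-1.18) and came close to 2-fold in 32 (-0.98, adjusted p = 0.000156) and T2 (-0.99, adjusted p = 0.000416), against -0.13 in S8. On the scale of the pluripotency markers Syce1 was at -0.52 in 16-6 and was called in 32 (-1.01). Tex11, an X-linked meiotic gene, had log2 differences of -0.98 in 16-6, -0.62 in 32, -0.07 in S8 and -0.81 in T2 and was not called.

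Of 15 other germline genes known for methylated CpG-island promoters in somatic cells, 10 were tested. In 16-6, 5 fell and none rose, with a median log2 difference of -1.02, and in 32, 1 fell, with a median of -0.59. In S8, 1 fell and 1 rose, with a median of 0.49, and in T2, 1 fell, with a median of -0.48. The gene that rose in S8 was Slc25a31, at 0.778 and 0.731 FPKM in R1, 2.545 in S8 and 1.266 in T2. It passed the filter through S8 and T2 only, with 1 library each, so its call is a description only. On the scale of the pluripotency markers the median in 16-6 was -0.43 and none was called there, where 165 of all 13693 genes were called lower. Tex14, which stabilises intercellular bridges of germ cells, fell in all 4 lines, by 1.49, 1.04, 1.01 and 1.22 on the log2 scale in 16-6, 32, S8 and T2. It was at 11.7 and 10.8 FPKM in R1 and between 3.26 and 5.07 FPKM in the 6 iPSC libraries, so that, as for Sycp3, the 2 groups did not overlap. Its changes were near the 2-fold limit in 32 and S8, at -0.79 and -0.86 after quantile normalization, and on the scale of the pluripotency markers they were -0.88, -1.06, -0.77 and -0.68 in 16-6, 32, S8 and T2. Stk31 (-1.24) and D1Pas1 (-1.32), a germline kinase-like gene and a relative of the Ddx3 helicases, fell in 16-6 and were not called against R1 in the other lines. Over the 5 lines both were called, with ranges of 1.24 for Stk31 (adjusted p = 0.0153) and 1.84 for D1Pas1 (adjusted p = 0.000365), and neither was called between 16-6 and 32, with log2 differences of -0.35 (adjusted p = 0.225) and -0.72 (adjusted p = 0.00162). Taf7l, a germ cell TFIID subunit, had log2 differences between -0.80 and -0.50 in the 4 lines and was not called.

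Of 15 genes of the piRNA pathway, 9 were tested, and none was called in 16-6 or S8, 1 fell in 32 and 1 rose in T2. Medians of the log2 difference were 0.05 in 16-6, -0.17 in 32, 0.06 in S8 and 0.08 in T2, and quantile normalization turned that of 32 to 0.22. Tdrd5 rose in T2 (1.17) and Tdrd7 fell in 32 (-1.14), both Tudor-domain genes, and after quantile normalization Tdrd7 had a log2 difference of -0.73. Tdrd12, at 45.3 and 42.8 FPKM in R1 and 88.3 and 80.2 FPKM in 32, had a log2 difference of 0.92 in 32. Mov10l1, the helicase that starts piRNA processing, had log2 differences between -0.69 and -0.13.

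All 9 genes of primordial germ cell specification were tested. In 32, 2 rose, Dppa3 (2.15) and the transcription factor Tfap2c under its older name Tcfap2c (1.12). Dppa3, which protects the maternal genome from demethylation, was at 248.6 and 230.5 FPKM in 32 and at 50.4 and 55.7 FPKM in R1. The receptor Kit fell in S8 (-1.49) and T2 (-1.34), and Ifitm1 fell in T2 (-1.23) together with Ifitm3 (-1.17), while on the scale of the pluripotency markers none of the list fell in T2 or 16-6. On that scale 377 of all 13693 genes were called lower in T2 and 165 in 16-6. Prdm14, a repressor that holds germ cell and naive states, fell in 16-6 (-1.02). The 4 genes called between 16-6 and 32, Prdm14, Dppa3, Kit and Ifitm1, were all lower in 16-6, where 10.3% of all genes were called. On the scale of the pluripotency markers none of the list was called lower in 16-6 than in 32. There 25 of all 13693 genes were called lower.

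**Figure D5:**
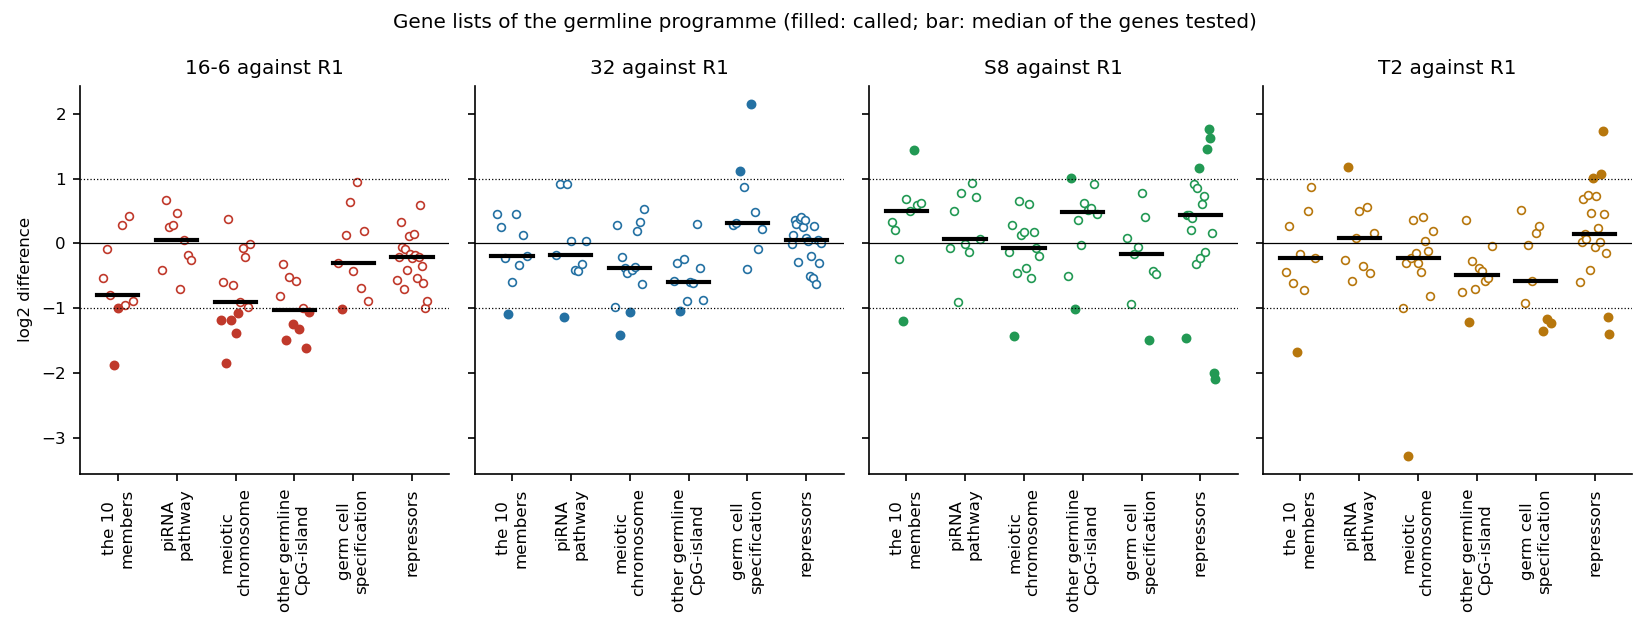
Log2 difference from R1 of every tested gene in the group of 10 and in 5 lists of germline and repressor genes, by line, with filled points for called changes and bars at the medians. In 16-6 the medians of the meiotic chromosome list (-0.90) and of the other CpG-island list (-1.02) lie near that of the 10 genes (-0.79), and that of the piRNA list is 0.05. The lowest point, in T2, is Syce3, which was listed at 0 there.

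Genes that write, read or remove the marks that restrain germline genes were a further list of 19, all tested. In 16-6 and 32 none reached both limits of the call, 4 rose and 3 fell in S8, and 3 rose and 2 fell in T2. Of all genes, 16.7% were called in S8 and 10.5% in T2. Dnmt3b, the de novo methyltransferase of germline CpG islands, was at 137.2 and 156.3 FPKM in R1, 221.9 and 220.2 in 16-6, 175.9 and 179.3 in 32, 502.1 in S8 and 490.4 in T2. It rose in S8 (1.77) and T2 (1.74), as did Dnmt3a (1.46 and 1.08) and Cbx3 (1.16 and 1.01), a heterochromatin protein, and Dnmt3l (1.62) rose in S8. Tet1 and Tet2, which oxidise methylcytosine, fell in S8 (-2.00 and -2.08) and T2 (-1.13 and -1.40). In 16-6 their log2 differences were just under 2-fold, -0.99 (adjusted p = 0.00021) and -0.89 (adjusted p = 0.000278), and in 32 they were -0.31 and 0.0080. Mga, a motif-binding subunit of the variant Polycomb complex, fell in S8 (-1.46), from 50.7 and 49.3 FPKM in R1 to 17.5 FPKM. The other subunits named at the start went the other way in S8 and were not called. Their log2 differences were 0.91 for Pcgf6, 0.44 for Max, 0.43 for E2f6 and 0.39 for L3mbtl2. Mael, Hormad1 and Tex19.1 were highest in the same S8 library, and with 1 library no relation between the listed repressor genes and the germline genes could be tested. On the scale of the pluripotency markers, 6 rose and 3 fell in S8, and 7 rose and none fell in T2, where Tet1 was then at -0.52 and Tet2 at -0.82. This scaling moved all genes as well. Of all 13693 genes, 1675 were called higher and 850 lower in S8, and 2440 higher and 377 lower in T2.

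The 9 tested genes did not follow 1 profile across the 8 libraries. The Pearson correlation of each gene with the mean standardised profile of the other tested members was 0.96 for Tex19.1, 0.80 for Mael, 0.79 for Hormad1, 0.70 for Dazl, 0.68 for Sycp1, 0.48 for Ddx4, 0.38 for Sycp3, -0.02 for Stra8 and -0.27 for Tdrd1. The genes outside the group whose profile was most like the mean of the 9 were Pak4 (r = 0.993), Cdt1 (r = 0.989) and Aspscr1 (r = 0.987) among 13684 genes over 8 libraries. Pak4, for example, was at 37.6 and 39.1 FPKM in R1, 27.3 and 28.0 in 16-6, 40.2 and 38.8 in 32, 49.1 in S8 and 34.2 in T2. The 8 points include 3 pairs of libraries of the same line, so these correlations are descriptions only.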

How the data were processed

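The submitters' labels placed 8 libraries in 5 lines. Per the study's methods, polyadenylated RNA was sequenced in paired reads, TopHat 2.0.4 placed the reads on UCSC gene models of the mm9 build, and alignments with more than 1 match were dropped. The authors deposited FPKM from Cufflinks with confidence limits for each library; the submitters' processing notes name version 2.0.0 and the methods another, and the options are not given in the sources used here. The deposited values sum far above the usual scale and were divided by 12725.7, which sets the median library total to 1000000. Fragments were implied from the limits as (2 × FPKM / (upper limit − FPKM)) squared, and for genes under 50 fragments 80.8% to 82.3% of them were whole to within 0.01. Limits cover counting and assignment error only.

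Genes with at least 1 FPKM in at least 1 library were fitted as log2(FPKM + 1) in limma 3.58.1 (R 4.3.3; lmFit, eBayes with a trend, 5 groups, 3 residual degrees of freedom), with Benjamini-Hochberg adjustment over all 13693 genes. The procedure was tested on simulated data. Nothing in the labels states separate cultures, although the methods call the replicates biological, so p-values measure the spread between these libraries, which may be technical. Replicate libraries differed by more than sampling noise and were counted separately. Motif searches used Python 3.11.15 and RefSeq promoter windows. Alternatives were another pseudocount, other filters, quantile normalization, no trend, no fold minimum, 6 libraries, a replicate block and leaving out each replicate, and, chosen after seeing the data, implied fragments and scaling to the pluripotency markers. All 10 genes were named by their membership, and from each other list the up to 4 tested genes with the largest mean difference, and other called genes chosen after their values were seen. The genes and lists were chosen with earlier results of these data known. Only uniquely matched reads count, so genes with near copies, such as Tex19.1 and Tex19.2, are uncertain.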

Additional observations from a re-analysis of the deposited data

Results flagged for a closer look

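Dazl and Ddx4 lay on opposite sides of R1 in every library of the 2 mesodermal lines, below it in 16-6 and above it in 32. The difference of 16-6 minus 32 was -0.98 for Dazl and -0.33 for Ddx4 on the log2(FPKM + 1) scale (limma, adjusted p = 0.000378 and 0.00715), under 2-fold on that scale in both. By FPKM alone Dazl was past 2-fold, with means of 2.16 in 16-6 and 5.23 in 32. On the scale of the pluripotency markers Ddx4 was at 0.38, where the median of all genes moved from -0.06 to 0.60. Tex101 showed the same order, with a mean of 0.160 FPKM in 16-6 and 0.796 FPKM in 32, a difference of -0.635 FPKM, but on 2 to 10 implied fragments per library, and that difference was not tested among the genes that passed the filter. Without the filter on low values its log2 difference was -0.63. Its confidence limits overlapped, reaching up to 0.388 FPKM in 16-6 and down to 0.207 FPKM in 32. Dazl, Ddx4 and Tex101 were flagged by these same values, so their differences are descriptions only.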

How the results depend on the processing

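Sycp3 was called lower than R1 in all 16 alternatives for 16-6 and all 14 for T2, in 13 of 16 for 32 and 13 of 14 for S8, where the pluripotency scale gave -0.95. Hormad1 in S8 was called in 14 of 14, and Mael in 16-6 in 12 of 16. The counts of the 9 genes called moved with the setting, as did those over all 13693 genes. In 16-6 the count was 4 with a pseudocount of 0.1, 7 with no fold minimum and 1 with implied fragments or the pluripotency scale. It was 1 to 3 leaving out each library. Over all genes 974 were called in the main setting. The other settings gave 1690 with that pseudocount, 7610 with no fold minimum, 997 with implied fragments and 2636 on the pluripotency scale. In 32 the count of the 9 genes was 0 after quantile normalization, 7 with no fold minimum and 0 to 1 leaving out each library. It was 0 without R1 replicate 2 or 32 replicate 1. All genes gave 1338 in the main setting, 1144 after quantile normalization and 8428 with no fold minimum. In S8 it was 7 of the 9 with no fold minimum and 1 on the pluripotency scale. All genes gave 2283 in the main setting, 9127 with no fold minimum and 2525 on the pluripotency scale. In T2 it was 3 of the 9 with a pseudocount of 0.1, 2 after quantile normalization, 7 with no fold minimum and 3 on the pluripotency scale. All genes gave 1437 in the main setting and, in the same order, 2198, 1478, 7932 and 2817. The mean of the iPSC lines gave 4 of the 9 with no fold minimum, where all genes went from 878 to 8907. Between 16-6 and 32 the count of the 9 was 1 with a pseudocount of 0.1 or quantile normalization and 7 with no fold minimum. It was 0 to 1 leaving out each library. All genes gave 1412 in the main setting, 2026 with that pseudocount, 1234 after quantile normalization and 8265 with no fold minimum. Over the 5 lines it was 8 of the 9 with a pseudocount of 0.1, 9 with no fold minimum, and 2 in 6 libraries with or without a replicate block. All genes gave 4720 in the main setting, 6022 with that pseudocount and 12109 with no fold minimum. In 6 libraries they gave 2238 with the block and 2246 without it. Replicate numbers did not pair the samples (correlations of deviations -0.097, 0.0010 and 0.028).

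Signs changed in these cases, none of them called under either setting, and the cause was not tested. The pluripotency scale shifts all genes alike, with medians of all genes of 0.61 in 16-6, 0.50 in T2, 0.30 in the mean and 0.60 between 16-6 and 32. On it the log2 difference was 0.0041 for Dazl and 0.57 for Ddx4 in 16-6; 0.019 for Dazl, 0.43 for Mael and 0.37 for Tex19.1 in T2; 0.24 for Dazl, 0.10 for Mael and 0.20 for Tex19.1 in the mean of the iPSC lines; and 0.38 for Ddx4, 0.31 for Mael, 0.37 for Stra8, 0.0082 for Hormad1 and 0.059 for Tex19.1 between 16-6 and 32. Quantile normalization gave 0.15 and 0.030 for Sycp1 in 32 and S8, 0.15 for Dazl in the mean and -0.033 for Tdrd1 between 16-6 and 32. Implied fragments gave 0.010 for Ddx4 in 16-6, 0.036 for Mael in T2 and 0.20 for Dazl in the mean. Without S8 and T2, with or without a replicate block, Hormad1 had a mean of -0.64, and leaving out each library gave Dazl a mean of -0.094 to 0.0025, with 0.0025 without R1 replicate 1. Low values limit Tex101, Stra8 and Tdrd1, which rest on 2 to 101 implied fragments.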
